A study of Mus musculus with 6 samples.

Results

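The RNA described here comes from the gammaretroviral elements of the mouse genome: murine leukemia virus (MLV), the VL30 elements and their smaller relatives. They were taken as all repeat names that begin with MuLV, MMVL30, MURVY, MURRS, RLTR6, RLTR4 or RLTR1 (the last 2 only where no further digit follows), without regard to capital letters. This gave 20 of the 1067 names in the repeat table, of which 8 are internal names (ending in -int, the part between the long terminal repeats) and 12 are names of long terminal repeats (LTRs). Ignoring capitals added MuRRS-int and MuRRS4-int to the 18 names matched letter by letter.

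Cultured keratinocytes of 3 control and 3 Dnmt1Δ/Δep mice were compared, to ask which transcripts change when the enzyme that maintains DNA methylation is lost from the epidermis. Dnmt1Δ/Δep mice carry 2 floxed Dnmt1 alleles (f/f) and Cre under the Keratin 5 promoter (K5-Cre), which acts in basal cells of stratified epithelia, and the control mice lack Cre and are Dnmt1 f/f or f/+. All mice were female and of a mixed C57BL/6J and 129SV background. Their epidermis was taken at postnatal day 3 and grown for 5 days in 0.05 mM CaCl2 with 8% chelated serum, and poly(A) RNA was sequenced, 1 library per mouse. The culture time is that of the labels and methods, and a figure legend of the study gives a shorter one.

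Gammaretroviruses have a simple genome with gag, pol and env genes between LTRs, and the LTR carries the promoter, enhancer and polyadenylation signal. Endogenous MLV proviruses are inherited germline copies, some of which still encode proteins, and strains of mice differ in the copies they carry. VL30 elements (virus-like retroelements) have MLV-like LTRs and lack functional viral genes, yet their RNA can be packaged into MLV particles. RLTR4 names are LTR and internal sequences of MLV, RLTR6 names are the corresponding sequences of VL30, MuRVY is a murine repeated virus on the Y chromosome, and MuRRS are murine retrovirus-related sequences. DNA methylation and the KRAB zinc finger protein pathway are known silencers of such proviruses. A repeat name sums the reads of every copy in the genome, so the values below cannot be assigned to single proviruses, and reads of related names can be shared.

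Libraries held between 53433121 and 115526598 gene reads and between 4940679 and 28673709 repeat reads, so counting error was small beside the spread between mice for all but the lowest names. The floor of 3 counts, which covers counting error only, corresponded to 0.139 to 0.410 counts per 1000000 normalized repeat reads (CPM). Dnmt1 was at 394, 379 and 324 CPM of gene reads in the control libraries and at 49.7, 54.3 and 50.7 CPM in the Dnmt1Δ/Δep libraries (edgeR, log2 fold change -2.83, adjusted p = 8.1e-05). The basal keratin genes Krt5 and Krt14 led the keratinocyte markers in all libraries, and both were lower in every Dnmt1Δ/Δep library than in every control library. Krt5 averaged 17880 ± 1179 CPM against 12655 ± 112 CPM (SD, 3 libraries each, log2 fold change -0.50, edgeR adjusted p = 0.038). Krt14 averaged 9438 ± 978 against 6183 ± 463 CPM (log2 fold change -0.61, edgeR adjusted p = 0.028), and neither reached the fold threshold. Repeat reads rose from between 8.87 and 12.2 per 100 gene reads in control to between 22.7 and 28.1 in Dnmt1Δ/Δep libraries. The values below are scaled by TMM over repeat names, which centers on the median name. In bulk RNA, a change in the number of transcribing cells and a change in RNA per cell cannot be told apart.

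VL30 and MLV RNA made up most of this group, and most internal names rose in Dnmt1Δ/Δep keratinocytes. A name was called when edgeR's quasi-likelihood test gave an adjusted p of at most 0.05 over all 938 names tested and the fold change was at least 1 on the log2 scale. All 20 gammaretroviral names passed the filter on low counts, and 11 of them (55%) were upregulated, beside 8.21% of all names tested. No gammaretroviral name was called downregulated by edgeR or by DESeq2, beside 0% of all names tested with edgeR. In the edgeR test 1 member, RLTR1E_MM, fell at an unadjusted p below 0.05. Over the 20 names the log2 fold changes had a median of 1.22, beside -0.05 over all names tested. In TMM-scaled CPM, every Dnmt1Δ/Δep library was above every control library in 13 of the 20 names, beside 18.3% of all names, and in 0 every one was below, beside 13.4%. With upper-quartile factors 9 of the 20 were upregulated and 0 downregulated, and of all names tested 63 were upregulated and 10 downregulated, against 77 and 0 with TMM.

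Calls were more frequent among internal names than among LTR names. Of the 8 internal names, 7 were upregulated, with a median log2 fold change of 1.82. Of the 12 LTR names, 4 were upregulated, with a median of 0.16. Over the whole table, 26 of 122 names ending in -int (21.3%) and 51 of 816 other names (6.25%) were upregulated. Of the 10 names with the most reads over all libraries 8 were upregulated and 6 were internal, and of the 10 with the fewest 3 were upregulated and 2 were internal, so the number of reads, which also grows with length, and the type of name overlap.

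**Figure D1:**
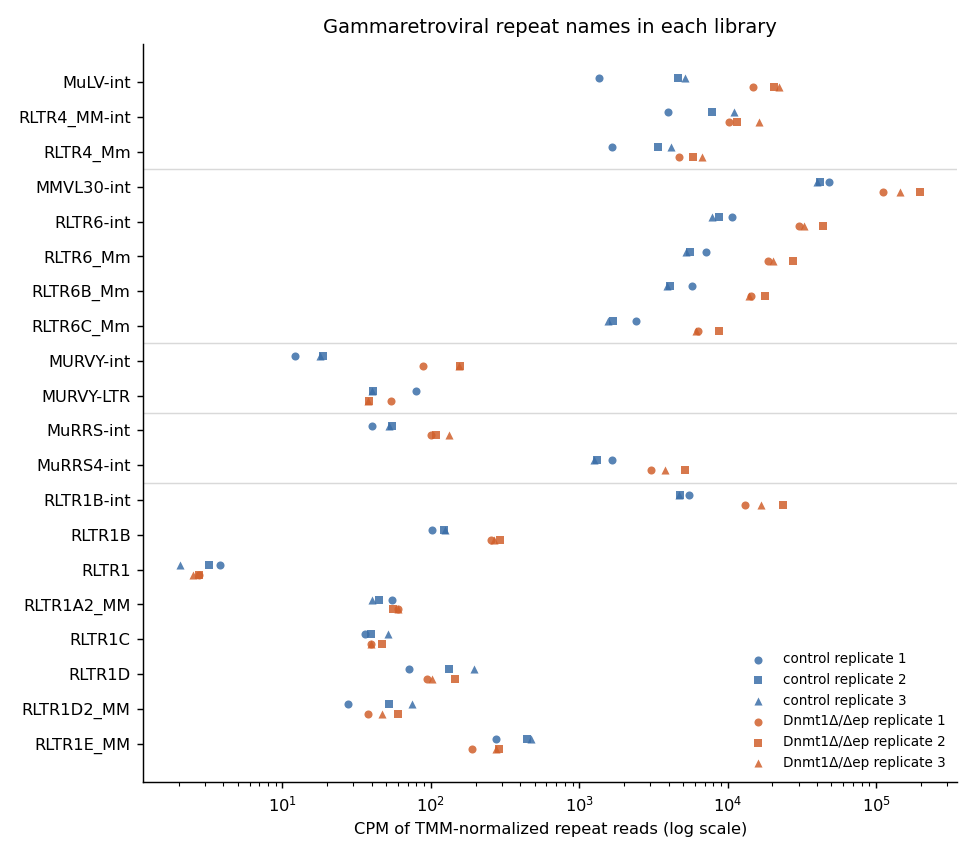
Level of each gammaretroviral repeat name (rows, grouped by family with gray lines in the order MLV, VL30, MuRVY, MuRRS and RLTR1) in CPM of TMM-normalized repeat reads on a log axis, with 1 point per library, blue for control and orange for Dnmt1Δ/Δep, and a marker shape for each replicate number. The VL30 rows are separated between groups without overlap, whereas in the MLV rows control replicate 1 lies below the other control libraries.

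All 5 VL30 names rose, by 1.76 to 1.96 on the log2 scale. MMVL30-int, the internal part of VL30, was at 48057, 41579 and 39652 CPM in control replicates 1, 2 and 3 and at 111278, 198812 and 145056 CPM in Dnmt1Δ/Δep replicates 1, 2 and 3. All 3 Dnmt1Δ/Δep libraries were above all control libraries, and replicate 2 was the highest and replicate 1 the lowest of the Dnmt1Δ/Δep group. The change was 3.52-fold (log2 fold change 1.82, SE 0.24, edgeR adjusted p = 0.0017). The spread among Dnmt1Δ/Δep libraries was a coefficient of variation of 29.1%, and 10.2% in control. Per 100 gene reads, the same libraries held 0.778, 0.512 and 0.543 reads on MMVL30-int in control and 2.49, 2.75 and 2.72 in Dnmt1Δ/Δep keratinocytes. On that scale the Dnmt1Δ/Δep libraries lay close to each other, and control replicate 1 was the highest of the control group.

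RLTR6-int, the other internal VL30 name, was at 10619, 8688 and 7895 CPM in control and at 30021, 43682 and 32431 CPM in Dnmt1Δ/Δep libraries (log2 fold change 1.96, SE 0.20, edgeR adjusted p = 3.9e-04). The groups were well apart, with a control range of 1.35-fold and a Dnmt1Δ/Δep range of 1.46-fold. RLTR6_Mm, a VL30 LTR and so the sequence that carries the promoter, was at 7157, 5587 and 5262 CPM in control and at 18624, 27551 and 20192 CPM in Dnmt1Δ/Δep libraries (log2 fold change 1.88, edgeR adjusted p = 5.95e-04). RLTR6B_Mm and RLTR6C_Mm, LTR names of the same family, had log2 fold changes of 1.76 (edgeR adjusted p = 6.9e-04) and 1.91 (edgeR adjusted p = 8.9e-04). In each of these names Dnmt1Δ/Δep replicate 2 was the highest library, and control replicate 1 was the highest of the control group. The VL30 names were already a large part of repeat RNA in control keratinocytes. MMVL30-int held 6.37%, 5.78% and 5.87% of repeat reads there and was 1 of the 3 names with the most reads in every control library, a rank by reads that also grows with the total length behind a name.

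The MLV names were less uniform. MuLV-int, the internal part of MLV with gag, pol and env, was at 1364, 4657 and 5155 CPM in control and at 14761, 20531 and 22185 CPM in Dnmt1Δ/Δep libraries. The groups did not overlap, and control replicate 1 was far below the other 2 control libraries, with a range of 3.78-fold in control and 1.50-fold in Dnmt1Δ/Δep libraries. The change was 5.14-fold (log2 fold change 2.36, SE 0.47, edgeR adjusted p = 0.015). The call was lost without Dnmt1Δ/Δep replicate 2 (log2 fold change 2.31, edgeR adjusted p = 0.055) and without Dnmt1Δ/Δep replicate 3 (log2 fold change 2.25, edgeR adjusted p = 0.062), while without control replicate 1 it stood.

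RLTR4_MM-int, the second internal MLV name, was at 3934, 7833 and 11107 CPM in control and at 10205, 11504 and 16233 CPM in Dnmt1Δ/Δep libraries. Control replicate 3 lay above Dnmt1Δ/Δep replicate 1, so the groups overlapped on this scale, whereas per 100 gene reads they did not (0.064, 0.097 and 0.152 against 0.228, 0.159 and 0.304). RLTR4_MM-int was the only internal name not called (log2 fold change 0.73, SE 0.37, edgeR adjusted p = 0.28), and its 95% confidence interval ran from -0.13 to 1.59. RLTR4_Mm, the MLV LTR, was at 1671, 3368 and 4122 CPM in control and at 4723, 5871 and 6692 CPM in Dnmt1Δ/Δep libraries. These groups did not overlap, and the test did not pass the threshold (log2 fold change 0.92, SE 0.32, edgeR adjusted p = 0.13).

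The RLTR4 calls depended on the scale and on the replicate block. With library sizes and factors from genes in place of repeat names, the median log2 fold change of all names tested moved from -0.05 to 0.33, and RLTR4_Mm was called (log2 fold change 1.32, edgeR adjusted p = 0.012) while RLTR4_MM-int was not (log2 fold change 1.15, edgeR adjusted p = 0.056). With the replicate number as a block on the repeat scale, RLTR4_MM-int (log2 fold change 0.82, edgeR adjusted p = 0.016) and RLTR4_Mm (just below 1, edgeR adjusted p = 0.0040) passed the adjusted p and stayed short of the fold threshold. RLTR4_MM-int was called only with both changes together (log2 fold change 1.18, edgeR adjusted p = 2.7e-04). As an unscaled share of repeat reads, RLTR4_MM-int was lower in 2 of 3 pairs, at 0.521%, 1.09% and 1.65% in control and 0.812%, 0.702% and 1.23% in Dnmt1Δ/Δep libraries. In TMM-scaled CPM, all 3 MLV names were higher in the Dnmt1Δ/Δep library than in its control within each replicate number. For RLTR4_MM-int the differences were 1.38, 0.55 and 0.55 on the log2 scale for replicates 1, 2 and 3, and for MuLV-int they were 3.44, 2.14 and 2.11.

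The lowest and the highest library in the MLV names were also those in markers of melanocytes, pigment cells that can be carried along in epidermal cultures. The 4 markers Dct, Tyrp1, Pmel and Mlana summed to 193, 458 and 502 CPM of gene reads in control and to 618, 761 and 829 CPM in Dnmt1Δ/Δep libraries. The sum was lowest in control replicate 1 and highest in Dnmt1Δ/Δep replicate 3, as were MuLV-int, RLTR4_MM-int and RLTR4_Mm. The libraries between these did not all share an order, since control replicate 3 was above Dnmt1Δ/Δep replicate 1 in RLTR4_MM-int and below it in the marker sum. None of the 4 markers was called, and their log2 fold changes were between 0.85 and 1.04 (edgeR, 0 of 4 called, 3 at an unadjusted p below 0.05, 1 of these past the fold threshold). Their part in the MLV values was not tested.

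**Figure D2:**
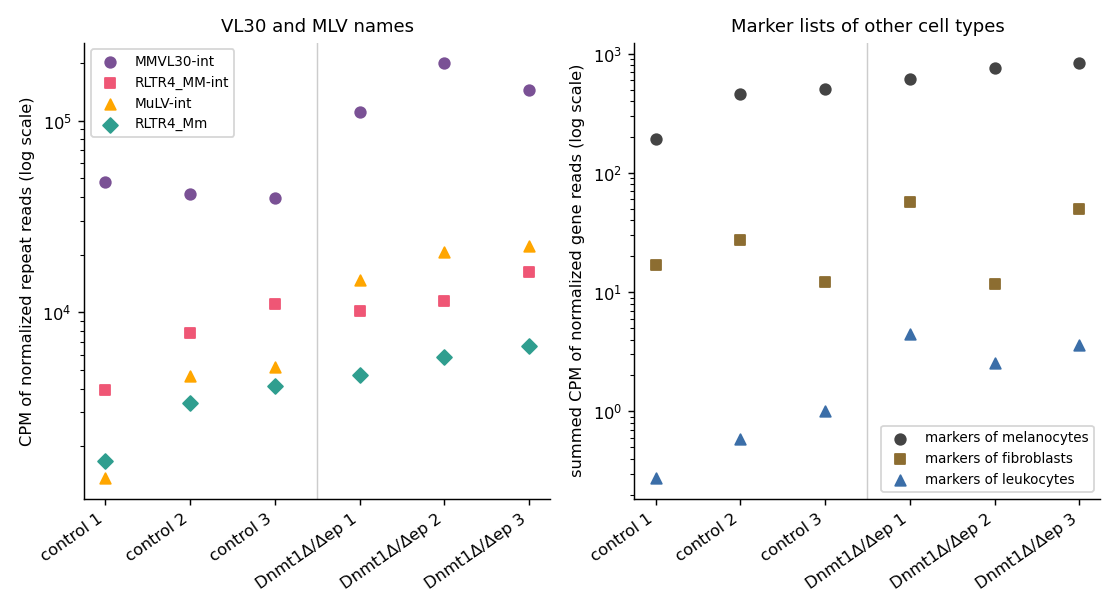
Left, CPM of normalized repeat reads (log axis) of the internal VL30 name MMVL30-int and the MLV names MuLV-int, RLTR4_MM-int and RLTR4_Mm in each of the 6 libraries. Right, summed CPM of normalized gene reads (log axis) of the marker lists of melanocytes, fibroblasts and leukocytes in the same libraries. The 3 MLV names and the melanocyte sum are lowest in control replicate 1 and highest in Dnmt1Δ/Δep replicate 3, and the fibroblast sum is lowest in Dnmt1Δ/Δep replicate 2, where MMVL30-int is highest.

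Other marker lists moved in other orders. The 5 fibroblast markers summed to 17.0, 27.4 and 12.1 CPM in control and to 57.3, 11.8 and 49.5 CPM in Dnmt1Δ/Δep libraries, with 0 of 5 called by edgeR (1 at an unadjusted p below 0.05). Dnmt1Δ/Δep replicate 2 had the highest VL30 level and the lowest fibroblast sum of all 6 libraries. The leukocyte markers summed to between 0.275 and 1.01 CPM in control and to between 2.52 and 4.41 CPM in Dnmt1Δ/Δep libraries. Of these 8 markers 7 were in the table and 3 passed the filter on low counts. Itgam and Csf1r were upregulated, from at most 33 and 38 counts in control, and Cd74 was not called (log2 fold change 3.30, edgeR adjusted p = 0.14). Ptprc, Lyz2, Cd3e and Cd207 did not pass the filter. The endothelial markers Pecam1 and Cdh5 summed to between 1.56 and 3.21 CPM in control and to between 10.4 and 14.4 CPM in Dnmt1Δ/Δep libraries, and both were called. Of all genes tested 6.03% were upregulated. The differentiation keratin Krt1 was at 53.2, 356 and 530 CPM in control and at 66.1, 59.2 and 65.5 CPM in Dnmt1Δ/Δep libraries (log2 fold change -2.30, not called). Krt10 was at 9.63, 32.1 and 29.7 CPM in control and at 10.6, 7.10 and 6.30 CPM in Dnmt1Δ/Δep libraries (log2 fold change -1.58, not called). In both genes control replicate 1, which also stood apart in the MLV names and the melanocyte sum, was at the level of the Dnmt1Δ/Δep libraries. The part of these lists in the retroviral values was not tested.

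MuRVY gave the largest fold change of the 20 names, on few reads. MURVY-int was at 12.1, 18.8 and 17.9 CPM in control and at 88.2, 156.6 and 154.7 CPM in Dnmt1Δ/Δep libraries. Every Dnmt1Δ/Δep library was several times above every control library, with replicate 1 the lowest of both groups. The change was 8.22-fold (log2 fold change 3.04, SE 0.29, edgeR adjusted p = 2.7e-04). MURVY-LTR, the LTR of the same element, was at 79.3, 40.4 and 39.9 CPM in control and at 53.5, 38.6 and 37.6 CPM in Dnmt1Δ/Δep libraries. The groups overlapped, with replicate 1 the highest of both groups, and the log2 fold change of -0.31 was not called (edgeR adjusted p = 0.56) and turned to 0.05 on the gene scale and to 0.06 without control replicate 1. The RNA came from female mice, and the 7 Y-linked genes Ddx3y, Kdm5d, Eif2s3y, Uty, Zfy1, Zfy2 and Usp9y had at most 5 counts in any library, with 3 of them at 0 everywhere.

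Both MuRRS names rose. MuRRS-int was at 40.4, 54.6 and 52.6 CPM in control and at 100.2, 108 and 133 CPM in Dnmt1Δ/Δep libraries (log2 fold change 1.21, SE 0.18, edgeR adjusted p = 0.0030). MuRRS4-int was at 1655, 1314 and 1256 CPM in control and at 3032, 5141 and 3805 CPM in Dnmt1Δ/Δep libraries (log2 fold change 1.50, SE 0.22, edgeR adjusted p = 0.0028). In both names the groups were apart. The libraries of MuRRS4-int lay in the order of MMVL30-int, whereas MuRRS-int was highest in Dnmt1Δ/Δep replicate 3.

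Of the 8 RLTR1 names, 2 rose, RLTR1B-int and RLTR1B, an internal name and its LTR. RLTR1B-int was at 5470, 4788 and 4718 CPM in control and at 13092, 23402 and 16644 CPM in Dnmt1Δ/Δep libraries (log2 fold change 1.83, SE 0.22, edgeR adjusted p = 0.0011). Its libraries lay in the order of MMVL30-int. RLTR1B was at 101, 123 and 125 CPM in control and at 252, 293 and 265 CPM in Dnmt1Δ/Δep libraries, a narrow range in both groups (log2 fold change 1.22, SE 0.14, edgeR adjusted p = 7.1e-04). The other 6 are LTR names, at control means between 3.01 CPM (RLTR1) and 396 CPM (RLTR1E_MM) beside 116 CPM for RLTR1B, and were not called. Their log2 fold changes were 0.33 for RLTR1A2_MM, -0.01 for RLTR1C, -0.09 for RLTR1D2_MM, -0.22 for RLTR1, -0.23 for RLTR1D and -0.66 for RLTR1E_MM, and on the gene scale those of RLTR1C, RLTR1D2_MM, RLTR1 and RLTR1D were positive. RLTR1E_MM was at 273, 444 and 470 CPM in control and at 189, 288 and 277 CPM in Dnmt1Δ/Δep libraries, with control replicate 1 below Dnmt1Δ/Δep replicates 2 and 3 (edgeR adjusted p = 0.16). It was lower in the Dnmt1Δ/Δep library in all 3 pairs, and with the replicate block it had a log2 fold change of -0.64 (edgeR adjusted p = 0.0016), short of the fold threshold. On the gene scale the log2 fold change of RLTR1E_MM was -0.29 (edgeR adjusted p = 0.51), and -0.28 with the block added (edgeR adjusted p = 0.037). RLTR1A2_MM was at 54.5, 44.4 and 39.9 CPM in control and at 59.6, 55.7 and 59.9 CPM in Dnmt1Δ/Δep libraries, apart by a small margin (edgeR adjusted p = 0.24). Per 1000000 gene reads its groups overlapped, at 8.83, 5.47 and 5.46 in control and 13.3, 7.72 and 11.2 in Dnmt1Δ/Δep libraries.

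**Figure D3:**
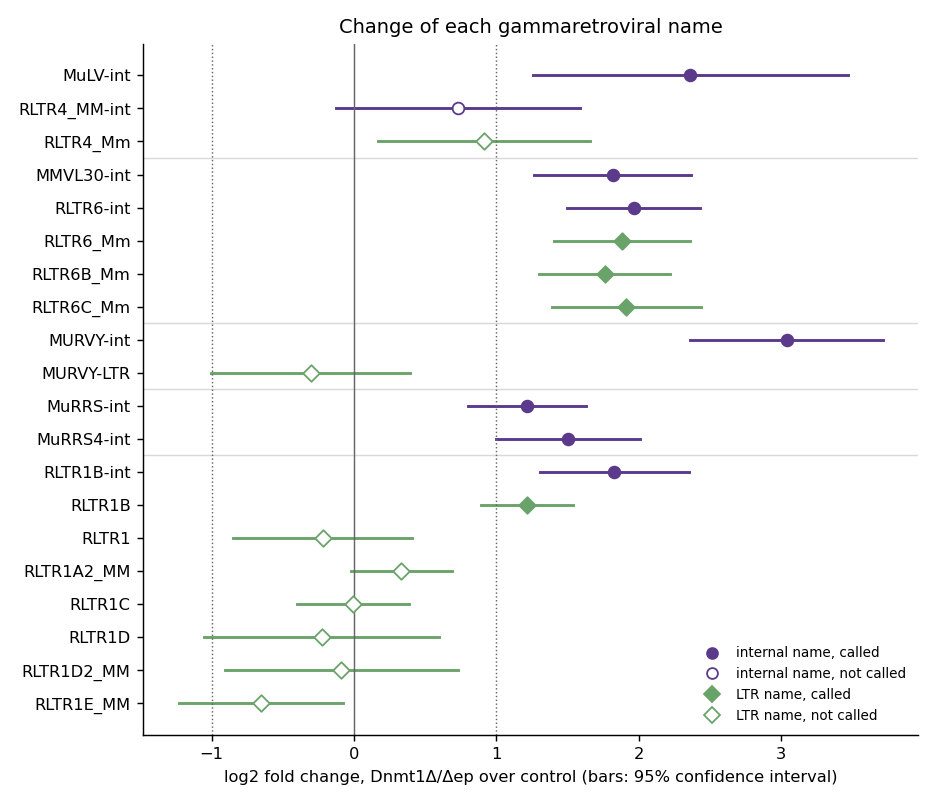
Log2 fold change of each gammaretroviral name, Dnmt1Δ/Δep over control, with its 95% confidence interval from edgeR, circles for internal names, diamonds for LTR names, and filled symbols for names called. Dotted lines mark the fold threshold at -1 and 1. The 5 VL30 names lie between 1.76 and 1.96, MURVY-int lies far from MURVY-LTR, and 8 of the 12 LTR names are open diamonds.

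The ratio of internal to LTR reads within a library needs no scaling between libraries. For MuLV-int per RLTR4_Mm read it was 0.816, 1.38 and 1.25 in control and 3.13, 3.50 and 3.32 in Dnmt1Δ/Δep libraries. All Dnmt1Δ/Δep libraries were above all control libraries and close to each other. For RLTR4_MM-int per RLTR4_Mm read it was 2.35, 2.33 and 2.69 in control and 2.16, 1.96 and 2.43 in Dnmt1Δ/Δep libraries. These groups overlapped, and within replicate numbers the ratio was lower in the Dnmt1Δ/Δep library in 3 of 3 pairs, by -0.12, -0.25 and -0.15 on the log2 scale. Both MLV internal names together gave 3.17, 3.71 and 3.95 in control and 5.29, 5.46 and 5.74 in Dnmt1Δ/Δep libraries. Seen directly, MuLV-int had 34.7, 59.4 and 46.4 reads per 100 reads of RLTR4_MM-int in control and 145, 178 and 137 in Dnmt1Δ/Δep libraries, so the name with fewer reads of the pair in every control library was the one with more in every Dnmt1Δ/Δep library.

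MURVY-int per MURVY-LTR read went from 0.152, 0.465 and 0.449 in control to 1.65, 4.06 and 4.12 in Dnmt1Δ/Δep libraries, again without overlap. The VL30 ratio was nearly the same in both groups, at 3.83, 4.43 and 4.45 in control and 3.59, 4.47 and 4.40 in Dnmt1Δ/Δep libraries. RLTR6-int per LTR read ranged from 0.694 to 0.766 in control and from 0.762 to 0.805 in Dnmt1Δ/Δep libraries, overlapping and higher in 3 of 3 pairs. Taken per read of the LTR name with the most reads alone, the RLTR6-int ratio was apart between the groups (log2 difference 0.08, exact permutation p = 0.1). RLTR1B-int per RLTR1B read was 54.2, 38.8 and 37.9 in control and 51.9, 79.8 and 62.9 in Dnmt1Δ/Δep libraries, with the groups overlapping in replicate 1. In exact two-sided permutation tests over libraries, p was 0.1 for the MuLV-int, joint MLV and MURVY ratios, which is the smallest p that 3 against 3 libraries allow, and 0.27 after Benjamini-Hochberg adjustment over 8 ratios. The p-values of the other 5 ratios were between 0.2 and 0.7 in the exact permutation test.

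**Figure D4:**
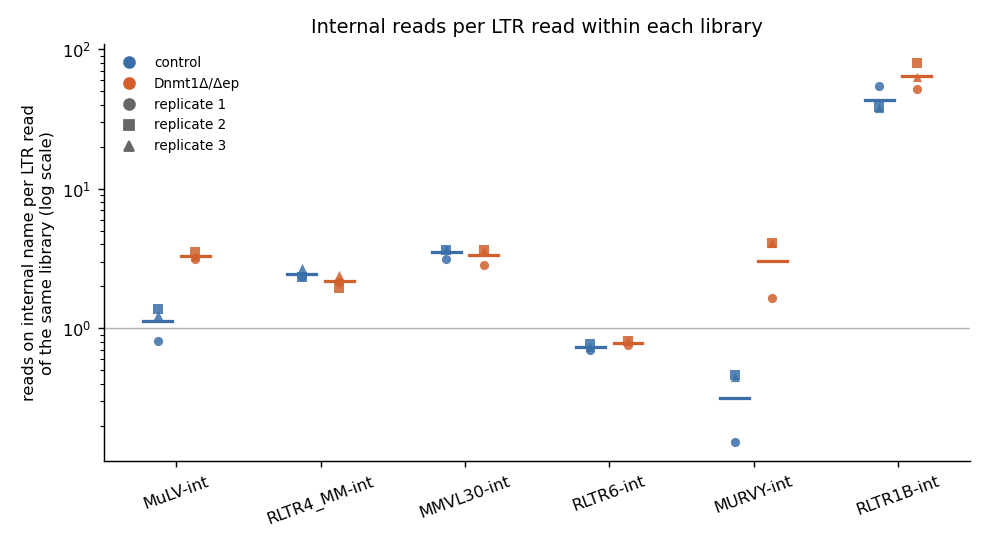
Reads on an internal name per read on the LTR names of its family in the same library (log axis), with blue points for control, orange points for Dnmt1Δ/Δep, a marker shape for each replicate number, and bars at the geometric mean of each group. MuLV-int and MURVY-int shift without overlap between the groups, while RLTR4_MM-int, MMVL30-int, RLTR6-int and RLTR1B-int overlap.

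As a share of repeat reads, the 20 names together held 11.8%, 11.7% and 12.7% in control and 18.1%, 22.2% and 21.5% in Dnmt1Δ/Δep libraries (12.1% ± 0.538 against 20.6% ± 2.19, SD, n = 3 each, exact two-sided permutation p = 0.1, the smallest possible). The groups were apart for the sum and, by family, for VL30 (9.81%, 8.56% and 8.63% against 14.4%, 18.1% and 16.4%), MuRRS and RLTR1 names. They overlapped for MLV names, at 0.924%, 2.20% and 3.02% in control and 2.36%, 2.31% and 3.41% in Dnmt1Δ/Δep libraries (exact permutation p = 0.4, higher in 3 of 3 pairs). They also overlapped for MuRVY names (exact permutation p = 0.3, higher in 2 of 3 pairs). With the names of intracisternal A particles (IAP) left out of the total, the shares were 11.9%, 11.9% and 13.1% in control and 26.7%, 35.1% and 33.4% in Dnmt1Δ/Δep libraries, a difference of 19.4 percentage points in place of 8.54 (exact two-sided permutation p = 0.1). Per 100 gene reads the names took 1.44, 1.04 and 1.17 in control and 5.09, 5.05 and 5.33 in Dnmt1Δ/Δep libraries, which is 4.23 times as many. MLV names alone took 0.113, 0.195 and 0.279 in control and 0.664, 0.525 and 0.845 in Dnmt1Δ/Δep libraries. On that scale, and as shares without IAP names, MLV and MuRVY names were each apart between the groups (exact permutation p = 0.1 each). Of the 15.1 repeat reads per 100 gene reads that Dnmt1Δ/Δep libraries had in addition to control, 26.1% fell on gammaretroviral names, 20.9% on VL30 names alone, 13.5% on MMVL30-int, and 3.19% on MLV names. The IAP names, the class of retroviral elements best known to be silenced by DNA methylation, took 56.5%.

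IAP and gammaretroviral names differed in their share of reads in control. IAP names held 1.39% to 2.85% of repeat reads in control, compared with 11.7% to 12.7% for the gammaretroviral names. In Dnmt1Δ/Δep libraries IAP names held 32.1% to 36.6%, and 21 of 24 IAP names were upregulated with a median log2 fold change of 3.89. Within the gammaretroviral reads VL30 names held the greater part in every library, 83.3%, 72.9% and 68.0% in control and 79.5%, 81.4% and 76.6% in Dnmt1Δ/Δep keratinocytes. MLV names held 7.85%, 18.8% and 23.8% of them in control and 13.1%, 10.4% and 15.9% in Dnmt1Δ/Δep libraries, with the groups overlapping.

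**Figure D5:**
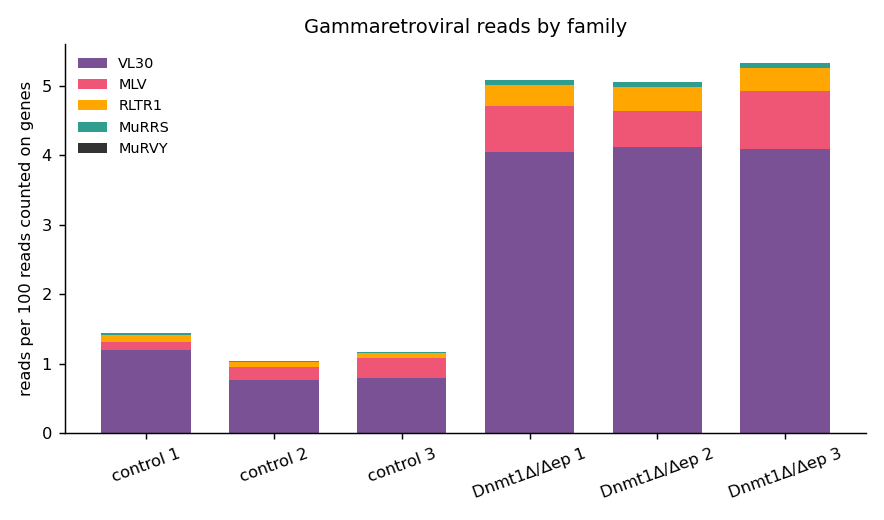
Reads on gammaretroviral names per 100 reads counted on genes in each of the 6 libraries, stacked by family. Control libraries reach 1.04 to 1.44 and Dnmt1Δ/Δep libraries 5.05 to 5.33, and VL30 is the largest block in every library.

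Host genes with known roles toward these viruses were read from the gene table in 4 lists, beside a background of 6.03% of the 16829 genes tested upregulated and 0.392% downregulated. In the 4 lists 5 genes were upregulated by edgeR, and 0 were downregulated by edgeR or DESeq2, also at an unadjusted p below 0.05 with the fold threshold. Of the 4 gammaretrovirus receptors, 0 were called by edgeR and 2 rose at an unadjusted p below 0.05. Slc7a1, a cationic amino acid transporter and the entry receptor of ecotropic MLV, had the highest level and averaged 430 ± 46.4 CPM in the control and 416 ± 16.9 CPM in the Dnmt1Δ/Δep group (SD, 3 libraries each), a log2 fold change of -0.05. Slc20a2, a phosphate transporter that serves as receptor of amphotropic MLV, had a log2 fold change of 0.68 (edgeR adjusted p = 0.034), short of the fold threshold, and was singled out after its values were seen.

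Of 12 restriction factors, host proteins that act against retroviruses, 3 were upregulated. Apobec3, a cytidine deaminase packaged into virions (chromosome 15, 79891659 to 79915906, GRCm38), went from 13.4 ± 2.99 to 63.0 ± 7.09 CPM (log2 fold change 2.24, SE 0.18, edgeR adjusted p = 7.9e-04). Bst2 (tetherin), which holds budding virions at the cell surface (chromosome 8, 71534255 to 71537456), went from 6.21 ± 0.373 to 18.5 ± 2.97 CPM (log2 fold change 1.58, SE 0.16, edgeR adjusted p = 0.0017). Trim30a, of the Trim family, had 1, 3 and 3 counts in control and 20, 14 and 103 counts in Dnmt1Δ/Δep libraries. Its log2 fold change of 3.91 (edgeR adjusted p = 0.031) rests on few counts and was 2.98 without Dnmt1Δ/Δep replicate 3, it has close paralogs with which reads could be shared, and its adjusted p passed the threshold in only 1 of the 6 fits that left out 1 library, that without Dnmt1Δ/Δep replicate 2. Named after their values were seen, Trim25, a ubiquitin ligase, had a log2 fold change of 0.65 (edgeR adjusted p = 0.0096), short of the fold threshold, and Fv1, a capsid-binding factor of retroviral origin, had one of -0.50 and was not called (edgeR adjusted p = 0.063).

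Of the 20 silencing factors 18 were tested, and 0 were called by edgeR, with 2 rising and 3 falling at an unadjusted p below 0.05. Trim28, the corepressor recruited by KRAB zinc finger proteins, had the highest level of the list, at 365 ± 28.9 CPM against 334 ± 42.2 CPM in the Dnmt1Δ/Δep group (log2 fold change -0.13, edgeR adjusted p = 0.62). Named after their values were seen, Zfp809, the KRAB zinc finger protein that binds the primer binding site of MLV, had a log2 fold change of 0.63 (edgeR adjusted p = 0.024), and Chaf1b, a subunit of the chromatin assembly factor, one of -0.42 (edgeR adjusted p = 0.046), both short of the fold threshold.

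Of 20 transcription factors with known binding to MLV or VL30 LTRs, 2 were upregulated. Runx3, a member of the core-binding factor family, went from 3.09 ± 0.941 to 7.91 ± 1.04 CPM (log2 fold change 1.36, edgeR adjusted p = 0.020), and Fosl1, an AP-1 subunit, went from 11.0 ± 4.93 to 30.9 ± 8.44 CPM (log2 fold change 1.48, edgeR adjusted p = 0.037). The adjusted p of Runx3 rose above 0.05, so that the call was lost, without Dnmt1Δ/Δep replicate 1, 2 or 3 (0.066, 0.084 and 0.051 with edgeR). That of Fosl1 did so without control replicate 2 or 3 or Dnmt1Δ/Δep replicate 1 or 2 (0.127, 0.087, 0.128 and 0.109 with edgeR). Named after their values were seen, Runx2, of the same family as Runx3, had a log2 fold change of 0.65 (edgeR adjusted p = 0.031), and Fosb, another AP-1 subunit, had one just below 1 (edgeR adjusted p = 0.037), both short of the fold threshold. Fosb was called with the replicate number as a block (log2 fold change 1.01, edgeR adjusted p = 0.025), with upper-quartile factors (edgeR adjusted p = 0.036) and without control replicate 1 (1.07, edgeR adjusted p = 0.034). Without the filter on low counts (edgeR adjusted p = 0.052) and in the other 5 fits that left out 1 library (edgeR adjusted p between 0.076 and 0.135) it missed the adjusted p. The median log2 fold change was 0.29 for receptors, 0.19 for restriction factors, -0.09 for silencing factors and -0.08 for LTR-binding factors, beside -0.00089 for all genes tested.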

How the data were processed

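The authors aligned poly(A) reads with STAR and counted unique reads on genes with htseq-count, and for repeats used bowtie on the mouse build MGSCv37 and then RepEnrich, which places unique as well as multi-mapping reads on names. The deposited values used here are raw counts per gene and per repeat name. Repeat reads are summed by name, without positions or lengths, so names were set side by side only by their reads or shares of reads, never per length. The authors' own tables of comparisons (size-factor normalized counts, fold changes and p-values) were not used. Entries of the gene table that name no gene (5, with 8.73% to 12.9% of reads) were left out, and 42462 of 43629 gene identifiers matched a symbol.

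Libraries were grouped by their labels. The 20 names and all gene and marker lists were chosen with earlier results of these data known. Counts were normalized by TMM, filtered with filterByExpr (minimum count 10, total 15) and tested by edgeR's quasi-likelihood test on each whole table without a block, with Benjamini-Hochberg adjustment over all 938 names or 16829 genes and calls at thresholds of 0.05 for the adjusted p and 1 for the size of the log2 fold change. Shares and ratios were compared by exact two-sided permutation over libraries. Named genes were the members, Dnmt1, all called genes of the lists and, for lists without one, the gene with the highest mean CPM. Replicate numbers paired the libraries: the labels share them, the headers show 1 flow-cell lane per number, and deviations from the group means correlated between same-numbered libraries (0.63, 0.48 and 0.46 for repeat names, 0.43, 0.28 and 0.30 for genes). Alternatives were DESeq2, other scaling, no filter, the block and leaving out each library. The calls were tested on simulated data. Python 3.11.15 with pandas 2.3.3, SciPy 1.17.1 and matplotlib 3.10.9 was used beside R 4.3.3 with edgeR 4.0.16 and DESeq2 1.42.0. Gene positions came from GENCODE M21 (GRCm38). No repeat sequence was used here.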

Additional observations from a re-analysis of the deposited data

How the results depend on the processing

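Between 9 and 13 of the 20 gammaretroviral names were upregulated in all alternatives run and 10 to 11 when 1 library was left out, and none was downregulated. With the replicate number as a block 11 were upregulated, the gammaretroviral share of repeat reads was 8.54 percentage points higher and higher in 3 of 3 pairs, and beside Fosb the block alone changed no call of a gammaretroviral name or a gene of the 4 lists (marker genes were not compared under it). With upper-quartile factors MuRRS-int (0.97) and RLTR1B (0.97) fell short of the fold threshold, and the median of all names moved to -0.29. Matching capitals exactly left 9 of 18 names upregulated, and this setting, the block on the gene scale and the block for shares were added after the data had been seen. Of all names tested 77 were upregulated, 83 with the block, 94 on the gene scale and 116 on it with the block. Directions turned in names that were not called. On the gene scale the log2 fold changes were 0.0523 for MURVY-LTR, 0.14 for RLTR1, 0.36 for RLTR1C, 0.14 for RLTR1D and 0.28 for RLTR1D2_MM, and with the block added to that scale they were 0.11, 0.19, 0.36, 0.22 and 0.34. With the block alone RLTR1C was at 0.00063. With 1 library left out, MURVY-LTR ranged from -0.49 to 0.0644, RLTR1C from -0.16 to 0.13, RLTR1D from -0.58 to 0.11 and RLTR1D2_MM from -0.44 to 0.24. In the same fits the log2 difference in internal per LTR reads ranged from -0.10 to 0.0695 for VL30 and from -0.14 to 0.0553 for MMVL30-int, Slc7a1 from -0.13 to 0.0290, and the genes upregulated in the 4 lists from 2 to 5. The cause was not tested. With 3 libraries a group, permutation tests could not pass 0.05. Counts summed over copies limit every value to a name, not a provirus.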

Other observations

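Some names kept a nearly fixed ratio to a gammaretroviral name over the 6 libraries. The measure was the SD of the log2 ratio of 2 names over the libraries, among 832 names with a mean count of at least 50, and both the measure and the names followed were chosen after the values were seen. These are descriptions. The SD was taken over both groups together, so a name whose fold change differs from that of the followed name has a larger SD. Names that share reads would also keep a fixed ratio. For MMVL30-int the closest was RLTR1B-int, with an SD of 0.025, where the median over names was 1.08. RLTR1B-int had 11.4, 11.5 and 11.9 reads per 100 reads of MMVL30-int in control and 11.8, 11.8 and 11.5 in Dnmt1Δ/Δep libraries. The next were RLTR6_Mm (0.13), RLTR13C2 (0.14), which is not among the gammaretroviral names, RLTR6-int (0.15) and MuRRS4-int (0.17). MuRRS4-int had 3.44, 3.16 and 3.17 reads per 100 reads of MMVL30-int in control and 2.72, 2.59 and 2.62 in Dnmt1Δ/Δep libraries, lower in all 3 pairs although both names were upregulated.

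For MURVY-int the closest was IAPEY5_I-int, an IAP name, with an SD of 0.095 and a median over names of 1.73. For RLTR4_MM-int it was its LTR, RLTR4_Mm (0.16). MuLV-int had no close partner: its nearest, MURVY-int, had an SD of 0.53, and RLTR4_MM-int and RLTR4_Mm were not among its 5 nearest names.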
